A study of Mus musculus with 2 samples.

Results

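Genes of adult neurogenesis and the cell cycle were described in mouse hippocampus, a brain region in which new neurons are still made in the adult. The set holds 34 genes out of 55536 annotated genes, chosen by symbol, and all 34 were found in the gene tables. The material was total RNA from female B6CASTF1/J mice aged 2 months, labelled as a layer of hippocampus with the layer not named, with 300 ng of RNA per library. The mice are hybrids of a C57BL/6J and a CAST/EiJ parent. Both libraries, biological replicates 1 and 2, belong to 1 group, with no treatment and no transgene named. Each has its own tissue record but they share 1 donor record, so the spread between them may be technical. With 1 group no comparison of conditions could be made. An exact permutation test on 2 libraries cannot reach a p-value of 0.05, so no p-value is given.

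New granule neurons of the dentate gyrus arise from radial glia-like stem cells that are kept mostly quiescent by Notch signalling. Once activated, they pass through dividing intermediate progenitors, which switch on proneural transcription factors, and then through neuroblasts and immature neurons that express cytoskeletal regulators. Dividing cells first load the MCM helicase onto replication origins, then copy their DNA, and then enter mitosis under the control of cyclins and the kinase CDK1. In bulk RNA a low level can come from few cells of a type or from little RNA in each of them, and these cannot be told apart.

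Annotated genes held 29490900 expected counts in replicate 1 and 30691917 in replicate 2. Levels are given in TPM (transcripts scaled to a fixed library total, corrected for length), as mean ± SD over n = 2 libraries. A minimum of 1 TPM in each library defined a detected gene. Of the 34 genes, 22 were detected (64.7%), beside 58% of 22028 protein-coding genes. Tissue markers were present: 7 of 7 pan-neuronal genes and 9 of 9 markers of hippocampal fields were detected. Among the neuronal ones the synaptic protein Snap25 reached 851 ± 32.1 TPM, and among the field markers Pcp4 reached 102 ± 10.8 TPM.

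The levels of the set spanned a wide range, from Tfap2c at 0.0750 ± 0.0354 TPM to Ccnd2 at 55.0 ± 0.849 TPM. The median over the 34 genes was 3.13 TPM in replicate 1 and 3.34 TPM in replicate 2. The genes divided by role. The 8 genes of late cell cycle and mitosis had a median of 0.388 ± 0.103 TPM and none was detected in both libraries, and the 4 progenitor factors had a median of 0.420 ± 0.0354 TPM with 1 detected. The 6 immature neuron genes had a median of 12.8 ± 0.697 TPM and all 6 were detected, as were all 5 genes of Notch signalling and stem cell state, with a median of 11.2 ± 2.18 TPM. Replication licensing and DNA synthesis lay between, at medians of 3.07 ± 0.385 and 3.04 ± 0.318 TPM.

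**Figure D1:**
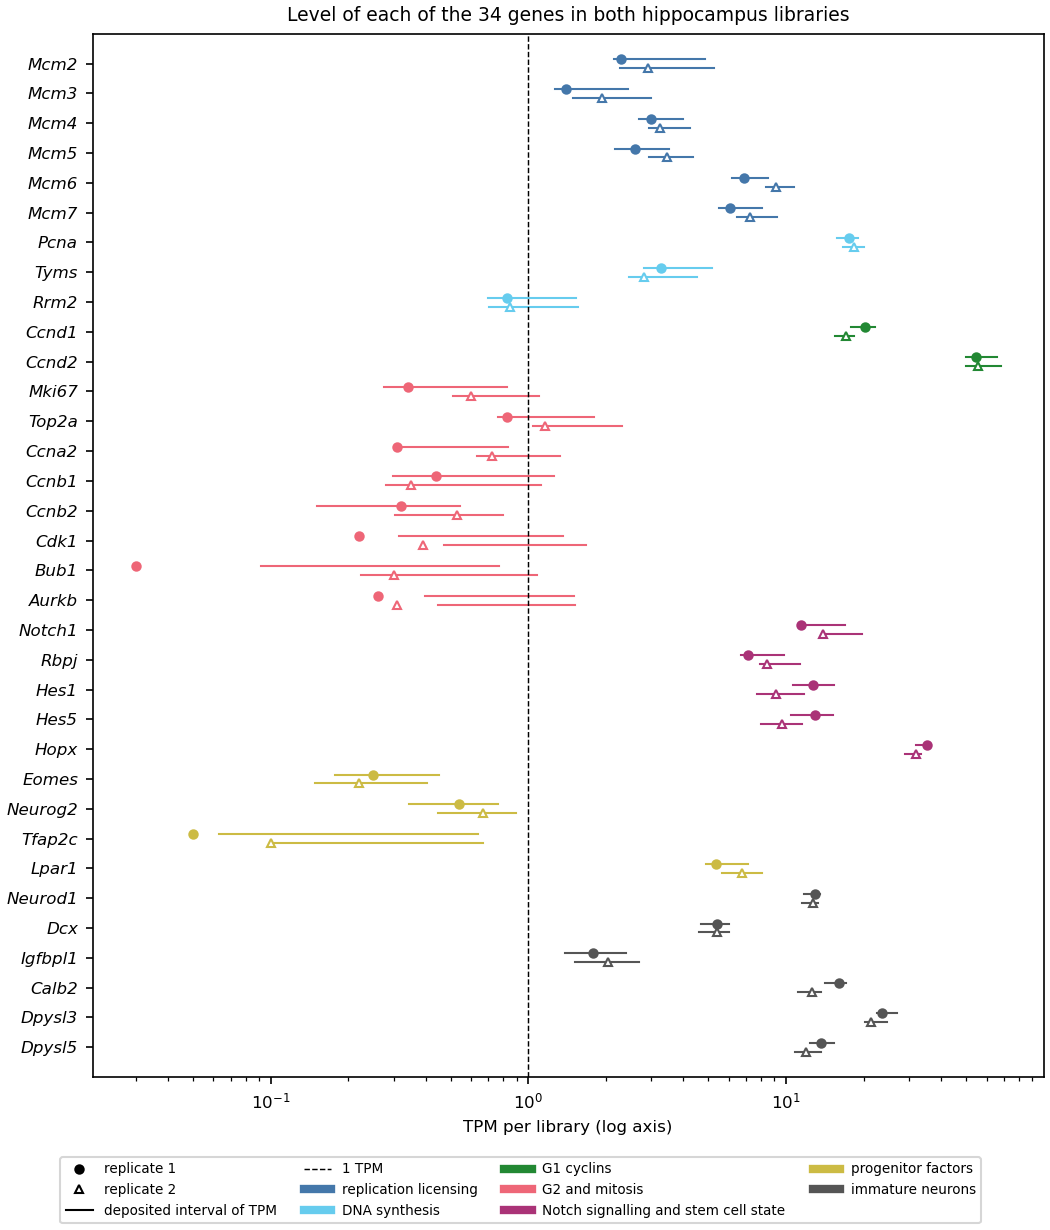
TPM of each of the 34 genes on a log axis, replicate 1 as filled circles and replicate 2 as open triangles, with the interval of TPM that the authors deposited for each gene as a line and 1 TPM as a dashed line. The mitotic genes and 3 of the 4 progenitor factors lie at or under about 1 TPM, and Ccnd2, Hopx and Dpysl3 lie highest.

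The MCM2 to MCM7 proteins form the hexameric helicase that is loaded at replication origins before DNA synthesis. All 6 genes were detected, and they were not at equal levels. Mcm6 was the highest of them, at 6.88 TPM in replicate 1 and 9.13 TPM in replicate 2 (mean 8.005 ± 1.59). Mcm7 stood at 6.06 and 7.26 TPM, and Mcm4 at 3.0 and 3.23 TPM. Mcm5 stood at 2.59 and 3.45 TPM, Mcm2 at 2.29 and 2.91 TPM, and Mcm3 was the lowest at 1.40 and 1.94 TPM. The order Mcm6, Mcm7, then the other 4 held in both libraries; in the second quantification, summed from a further deposited transcript table, Mcm7 (12.4 TPM) was above Mcm6 (11.9 TPM) in replicate 1. Within each library the level of Mcm6 was above that of Mcm2 by 1.62 ± 0.04 on the log2 scale, a 3.07-fold difference, and that of Mcm7 by 1.36 ± 0.06, a 2.57-fold difference (4.0-fold in the second quantification). Both exceed 3 SD of the 2 libraries. All 6 genes had the higher TPM in replicate 2. Mcm4 stood above Mcm2 in both libraries, and the values of Mcm5 overlapped those of both genes. The deposited TPM intervals of Mcm2, Mcm4 and Mcm5 overlapped in each library, so their order is not resolved. Those of Mcm6 and Mcm7 also overlapped in each library, as did those of Mcm3 and Mcm2. The order within either pair is therefore not resolved by these intervals.

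Pcna, the sliding clamp that holds DNA polymerase on its template and also serves in repair, was by far the highest of the DNA synthesis genes, at 17.50 and 18.42 TPM in replicates 1 and 2. Tyms, the thymidylate synthase that makes the DNA-specific nucleotide, stood at 3.26 and 2.81 TPM. Rrm2, the S-phase subunit of ribonucleotide reductase, stood at 0.83 and 0.85 TPM, from 35 expected counts in each library, and was not detected by the minimum used. Pcna exceeded the proliferation marker Mki67 by 5.31 ± 0.53 on the log2 scale, 39.8-fold. For each of these 3 genes the libraries differed by little in counts: 521 and 562 for Pcna and 110 and 114 for Tyms.

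The D-type cyclins, which bring CDK4 and CDK6 into activity during G1 and are known in glia as well as in neural progenitors, were the highest cell cycle genes with Pcna. Ccnd2, which is known to be needed for adult hippocampal neurogenesis, was the highest of all 34 genes at 54.40 and 55.60 TPM, above 92.4% of protein-coding genes. It lies on chromosome 6, 127125162 to 127152193, - strand (mm10). Ccnd1 stood at 20.21 and 17.05 TPM, above Pcna in replicate 1 and below it in replicate 2, and in the second quantification Pcna was the higher in both libraries. Within each library Ccnd2 exceeded Ccnd1 by 1.57 ± 0.20 on the log2 scale (2.96-fold), and the second quantification gave 1.56 ± 0.15.

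Genes of the late cell cycle were at the lower end. Top2a, the topoisomerase that untangles replicated chromosomes, was the highest of the 8, at 0.83 TPM in replicate 1 and 1.16 TPM in replicate 2. Mki67, which encodes the chromosome coat protein used to stain dividing cells (chromosome 7, 135689784 to 135716361, - strand, mm10), stood at 0.34 and 0.60 TPM. Replicate 2 held the higher value of both. Of the mitotic cyclin genes, Ccna2 stood at 0.31 and 0.72 TPM, Ccnb1 at 0.44 and 0.35 TPM and Ccnb2 at 0.32 and 0.53 TPM. Cdk1, their kinase partner, stood at 0.22 and 0.39 TPM. Aurkb, the kinase that corrects chromosome attachment, stood at 0.26 and 0.31 TPM, and the spindle checkpoint kinase gene Bub1 at 0.03 and 0.30 TPM. Ccnb1 was the only one of the 8 with the lower TPM in replicate 2.

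Few reads stand behind these values. The expected counts were 73 and 134 for Mki67, 42 and 80 for Top2a, 19 and 38 for Ccna2, and between 2 and 17 in either library for the other 5. Summed over the 8 genes they were 168 in replicate 1 and 305 in replicate 2, and 53 and 91 without Mki67 and Top2a. In the second quantification the sums were 213 and 387. The level of Ccnb2 relative to Ccnb1 did not exceed the spread, at 0.07 ± 0.75 on the log2 scale. For Mki67 the ratio of replicate 2 to replicate 1 after scaling for library size was 1.76, with an exact 95% counting interval of 1.32 to 2.38, and for Top2a it was 1.82, interval 1.24 to 2.73. These intervals cover counting error only and compare the 2 libraries with each other.

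Of the cell cycle genes at 1 CPM or more (counts per library of fixed size), Mki67, Top2a, Mcm5 and Mcm6 were higher in replicate 2 beyond counting error. So were 8.96% of the 15509 genes tested, and the deposited TPM intervals of these cell cycle genes overlapped between the libraries. The cause of the difference was not tested. Chosen by this difference, the 200 bases before the RefSeq transcription starts of these cell cycle genes (GRCm38.p6) are shown. Those of Cdk1, Ccnb2 and Bub1 are added for the less abundant mitotic genes. They are written in the direction of transcription, with capitals marking every match, on either strand, to 6 short motifs. The first is CCAAT, the box bound by NF-Y. The form TTTGAA and also the form TTTAAA belong to the cell cycle homology element. The form TTCCCGC as well as the form TTTGGCG and the related form TTTCGCG are E2F sites, and these E2F forms can overlap each other.

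Mki67 (chr7:135716380-135716579, - strand): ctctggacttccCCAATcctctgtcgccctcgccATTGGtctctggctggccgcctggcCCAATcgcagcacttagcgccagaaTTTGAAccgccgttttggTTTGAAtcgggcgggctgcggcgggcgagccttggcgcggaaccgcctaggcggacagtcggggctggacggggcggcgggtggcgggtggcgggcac
Top2a (chr11:99024190-99024389, - strand): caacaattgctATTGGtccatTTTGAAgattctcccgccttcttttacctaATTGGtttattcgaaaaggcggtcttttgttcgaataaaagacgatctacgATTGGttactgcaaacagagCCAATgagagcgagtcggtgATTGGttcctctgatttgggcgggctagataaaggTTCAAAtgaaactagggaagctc
Cdk1 (chr10:69352913-69353112, - strand): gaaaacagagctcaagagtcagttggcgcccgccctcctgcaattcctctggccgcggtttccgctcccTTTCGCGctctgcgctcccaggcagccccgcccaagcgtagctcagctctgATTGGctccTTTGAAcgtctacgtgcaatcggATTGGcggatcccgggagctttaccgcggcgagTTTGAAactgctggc
Ccnb2 (chr9:70421555-70421754, - strand): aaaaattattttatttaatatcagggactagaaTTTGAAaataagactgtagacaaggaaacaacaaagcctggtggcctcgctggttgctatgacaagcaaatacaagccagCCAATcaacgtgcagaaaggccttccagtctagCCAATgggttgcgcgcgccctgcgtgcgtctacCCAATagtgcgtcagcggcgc
Bub1 (chr2:127831860-127832059, - strand): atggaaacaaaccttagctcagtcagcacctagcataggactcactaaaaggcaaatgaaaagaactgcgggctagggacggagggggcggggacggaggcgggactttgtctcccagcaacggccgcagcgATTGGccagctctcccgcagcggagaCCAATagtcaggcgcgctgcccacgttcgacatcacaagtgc
Mcm5 (chr8:75109309-75109508, + strand): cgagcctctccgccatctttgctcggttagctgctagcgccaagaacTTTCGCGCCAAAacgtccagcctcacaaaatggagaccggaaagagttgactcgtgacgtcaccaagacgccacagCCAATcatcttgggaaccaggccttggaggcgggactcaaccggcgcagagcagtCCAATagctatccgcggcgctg
Mcm6 (chr1:128359706-128359905, - strand): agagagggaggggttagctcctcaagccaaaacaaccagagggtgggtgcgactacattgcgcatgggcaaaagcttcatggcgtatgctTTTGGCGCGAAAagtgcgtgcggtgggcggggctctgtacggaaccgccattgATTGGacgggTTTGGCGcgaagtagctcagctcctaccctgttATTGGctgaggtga

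Each of the 5 mitotic stretches holds CCAAT more than once, counting both strands, and 4 of them, all but Bub1, hold TTTGAA. The stretch of the mitotic gene Ccnb1, not printed, also holds CCAAT, but TTTAAA and no TTTGAA. Those of Mcm5 and Mcm6 hold E2F forms beside CCAAT, and so does the mitotic stretch of Cdk1, with TTTCGCG. Of the 34 genes, 24 had at least 1 entry in the RefSeq promoter table, with 30 promoters in all, each 250 bases before to 50 after the start. CCAAT was found in 21 of the 30 (70%), beside 37.4% of all 32851 promoters in the table: in 6 of 6 for mitotic genes, in 8 of 9 for licensing and synthesis genes and in 7 of 15 for the others. The E2F forms TTTGGCG and TTTCGCG were each found in 4 of 30 (13.3%), beside 1.56% and 0.849% of all promoters, and TTCCCGC in 4 of 30 (13.3%) beside 4.6%. TTTGAA was found in 6 of 30 (20%) beside 17.9%, 4 of them among the 6 mitotic promoters, and TTTAAA in 3 of 30 (10%) beside 13.2%. A match is a description of the sequence and not a bound site. Of 3 further motifs, TGGGAA, the core of the RBPJ site, was found in 9 of 30 (30%) beside 25.6%, the E-box CACGTG in 2 of 30 (6.67%) beside 7.15%, and the E-box CAGCTG in 2 of 30 (6.67%) beside 16.3%. The genes with promoters that hold TGGGAA were Hes5, Rbpj, Dpysl5, Ccnb1, Tyms, Mcm3, Mcm5 and Mcm7.

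Notch signalling was represented by a receptor, its nuclear effector and 2 target genes, with the stem cell gene Hopx. The receptor gene Notch1 stood at 11.43 TPM in replicate 1 and 13.93 TPM in replicate 2. Rbpj, the DNA-binding protein through which cleaved Notch receptors activate their targets, stood at 7.10 and 8.43 TPM. Both were higher in replicate 2. The targets Hes1 and Hes5, repressors that hold back proneural genes, stood at 12.72 and 9.11 TPM and at 12.91 and 9.64 TPM, both lower in replicate 2. Their levels did not differ from each other beyond the spread, at 0.05 ± 0.04 on the log2 scale for Hes5 over Hes1. Hopx, a homeodomain protein of quiescent stem cells that is also known in astrocytes, was the highest of the 5 at 35.16 and 31.95 TPM, and the second highest of all 34 genes. Notch1 had 1896 and 2203 expected counts, so this comparison between the libraries rests on more reads than that of the mitotic genes.

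The progenitor factors divided into 3 scarce genes and Lpar1. Eomes, also called Tbr2, the transcription factor of intermediate progenitors, stood at 0.25 and 0.22 TPM from 18 and 16 expected counts. Neurog2, a proneural factor that precedes Neurod1 in the lineage, stood at 0.54 and 0.67 TPM from 25 and 32 counts. Tfap2c, a transcription factor known in neural progenitors, was the lowest of the 34 genes, with 2 and 6 counts. None of the 3 was at 0 in either library. Lpar1, a lysophosphatidic acid receptor known in stem cells and also in oligodendrocytes, stood at 5.33 and 6.74 TPM. For all of these 4 genes the counting intervals of the ratio between the libraries included no difference.

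Genes of neuroblasts and immature neurons all lay above Eomes, Neurog2 and Tfap2c, while Igfbpl1 lay below Lpar1 in both libraries and Dcx in replicate 2. Neurod1, a transcription factor of late progenitors that granule neurons also retain, stood at 12.96 and 12.77 TPM, with 740 and 759 counts. Dcx, the microtubule-binding doublecortin used to stain neuroblasts, was at 5.39 TPM in both libraries, with 671 and 695 counts, and lies on the X chromosome, 143855842 to 143933311, - strand (mm10). The closeness of the 2 values of Dcx is that of 2 libraries and gives no measure of spread between animals. Igfbpl1, a relative of the secreted IGF-binding proteins, stood at 1.79 and 2.03 TPM. The CRMP family genes Dpysl3 and Dpysl5, which encode regulators of growing axons, stood at 23.57 and 21.39 TPM and at 13.65 and 11.99 TPM. Calb2, the calcium buffer calretinin of immature granule neurons, interneurons and mossy cells, stood at 16.01 and 12.65 TPM. Its deposited TPM intervals, 14.2 to 17.0 in replicate 1 and 11.2 to 13.6 in replicate 2, were the only ones among the 34 genes that did not overlap. The share of all genes with separate intervals was not computed, so this count has no background beside it. The deposited intervals do not always hold the TPM beside them. A TPM lay under its own interval for 5 of the 34 genes in replicate 1, Notch1 and Aurkb among them, and for 3 in replicate 2.

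Levels along the lineage differed more than the libraries did. Neurod1 exceeded Eomes by 5.78 ± 0.12 on the log2 scale (54.9-fold) and Neurog2 by 4.42 ± 0.24 (21.4-fold). Dcx lay below Neurod1, at -1.26 ± 0.02, and above Mki67, at 3.58 ± 0.58 (11.9-fold). Dpysl3 exceeded Dpysl5 by 0.81 ± 0.03 (1.76-fold). Each of these 5 differences is larger than 3 SD between the libraries, as were 10 of the 12 pairs compared, the exceptions being Ccnb2 against Ccnb1 and Hes5 against Hes1. These are comparisons of RNA levels in bulk tissue.

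Partner genes of the same pathways, not in the set, were read from 7 further lists with 141 genes in all. Of 19 genes of origin recognition and licensing, 12 were detected, led by the origin recognition subunits Orc4 at 32.0 ± 0.863, Orc3 at 23.8 ± 1.88 and Orc6 at 11.8 ± 0.0283 TPM. Of 17 DNA synthesis genes, 13 were detected, led by the clamp loader subunit Rfc2 at 21.7 ± 0.0354, the reductase subunit Rrm2b at 14.2 ± 0.990 and Rfc1 at 12.5 ± 0.700 TPM. Rrm2b, which supplies nucleotides outside S phase, thus stood above the member Rrm2. Of 23 cyclins, kinases and inhibitors, 16 were detected, led by the D-cyclin partner Cdk4 at 38.2 ± 1.61 and the inhibitors Cdkn2d at 21.5 ± 0.290 and Cdkn1b at 19.2 ± 1.06 TPM. Mitotic partners were scarce too: 8 of 24 were detected, with a median of 0.645 ± 0.198 TPM. The 3 highest of them were Bub3 at 24.9 ± 1.48, Anln, which is also known in oligodendrocytes, at 6.245 ± 0.799 and Incenp at 6.16 ± 1.05 TPM.

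Notch partners were mostly present, with 20 of 22 detected and a median of 5.92 ± 0.286 TPM. The Numb-family gene Numbl led them at 56.5 ± 5.30 TPM, followed by the receptor-cleaving protease Adam10 at 28.2 ± 0.516 and the glycosyltransferase Rfng at 26.5 ± 0.106 TPM. Of 16 other stem and progenitor genes, 15 were detected, with the radial glia fatty acid-binding protein Fabp7 at 35.6 ± 2.87, the filament protein Vim at 26.4 ± 2.23 and Id4 at 20.2 ± 0.997 TPM. Of 20 other neuroblast and immature neuron genes, 18 were detected and their median of 58.6 ± 0.898 TPM was the highest of these 7 lists. It was led by Dpysl2 at 228.7 ± 2.64, Dclk1 at 225.8 ± 3.75 and the tubulin regulator Stmn2 at 160.3 ± 9.02 TPM, genes that mature neurons also express. Dcx and Igfbpl1, at 5.39 and 1.91 TPM, lay far under that median.

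**Figure D2:**
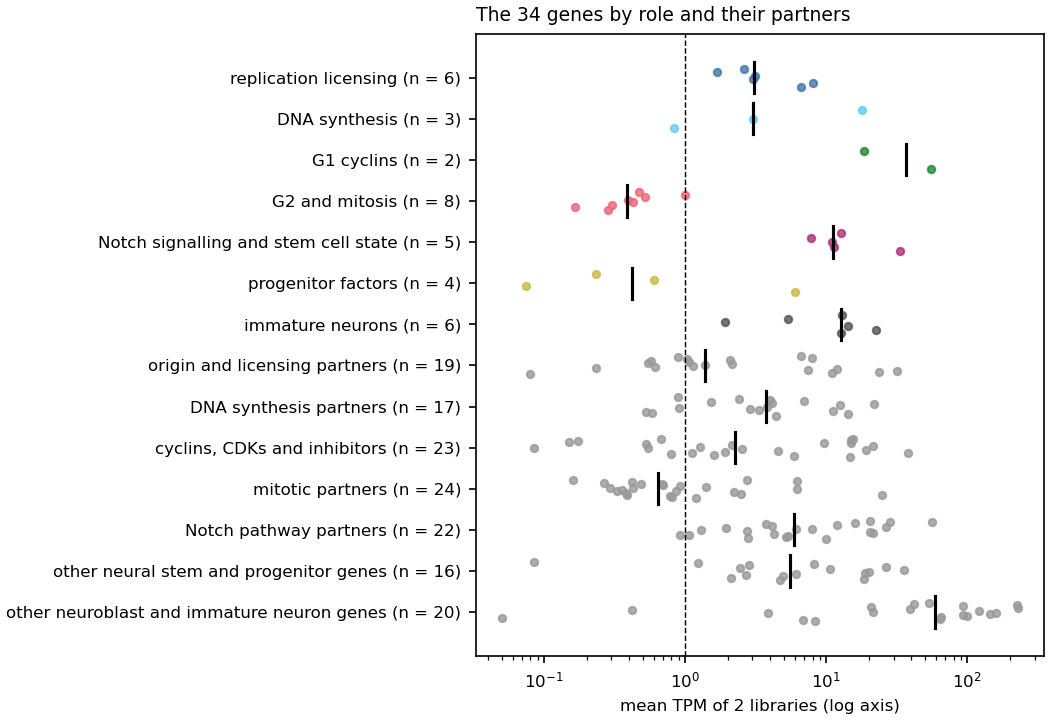
Mean TPM over 2 libraries, on a log axis, of each of the 34 genes by role (coloured) and of the partner genes by list (grey), with a black bar at the median of each group (the mean of the medians in the 2 libraries) and a dashed line at 1 TPM. The mitotic members and the mitotic partners have medians of 0.388 and 0.645 TPM, and the list of other neuroblast and immature neuron genes has the highest median, 58.6 TPM.

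The difference between the libraries was measured as the log2 ratio of replicate 2 to replicate 1, for the 25 of the 34 genes at or above an average of 1 CPM. None of the 25 differed by 1 or more on the log2 scale, beside 0.529% of the 15509 genes tested. The median was -0.01 over the 25 genes and -0.000935 over all genes. An exact 95% counting interval left out 0 for 10 of the 25 genes, beside 18.7% of all genes tested: 5 were higher in replicate 2, beside 8.96%, and 5 were lower, beside 9.72%. Over the 13523 genes within the members' range of CPM the share with an interval off 0 was 15.8%. As 1 library stands against 1, no p-value was computed.

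The genes higher in replicate 2 were Top2a (log2 ratio 0.86, interval 0.32 to 1.45), Mki67 (0.81, interval 0.40 to 1.25), Mcm5 (0.40, interval 0.07 to 0.73), Mcm6 (0.38, interval 0.20 to 0.57) and Notch1 (0.16, interval 0.07 to 0.25). Of these 5, 4 are cell cycle genes, which make up 13 of the 25 genes. The genes lower in replicate 2 were Hes1 (-0.46, interval -0.72 to -0.21), Calb2 (-0.34, interval -0.54 to -0.14), Ccnd1 (-0.15, interval -0.26 to -0.04), Dpysl5 (-0.14, interval -0.26 to -0.02) and Dpysl3 (-0.11, interval -0.20 to -0.03). Of them 3 are immature neuron genes, which make up 6 of the 25, and Ccnd1 is a cell cycle gene. By role, the 6 licensing genes all had ratios above 0, with a median of 0.11. The 6 immature neuron genes all had ratios below 0, with a median of -0.09. Over all 15509 genes tested, 7701 had ratios above 0 and 7808 below. In the second quantification 5 of the 6 licensing genes and 2 of the 6 immature neuron genes were higher in replicate 2. The ratios of the 3 DNA synthesis genes, Rbpj, Hes5, Hopx, Lpar1 and Ccnd2 had intervals that included 0.

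Of the 9 genes under 1 CPM, 6 are mitotic. Ccna2 had a ratio of 0.92 on the log2 scale with an interval of 0.11 to 1.82. The other 5 mitotic genes had intervals that included 0, as wide as -0.96 to 4.87 for Bub1. In the second quantification the interval of Ccna2 included 0 (-0.16 to 1.39) and that of Cdk1 lay above it (0.33 to 4.0). With the 2 tested genes, 7 of the 8 mitotic genes had higher scaled counts in replicate 2, and all 8 in the second quantification. Among the 15509 genes at 1 CPM or more, 7701 were higher in replicate 2 in the first quantification. These 8 genes were read in the same 2 libraries and are not 8 independent observations.

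**Figure D3:**
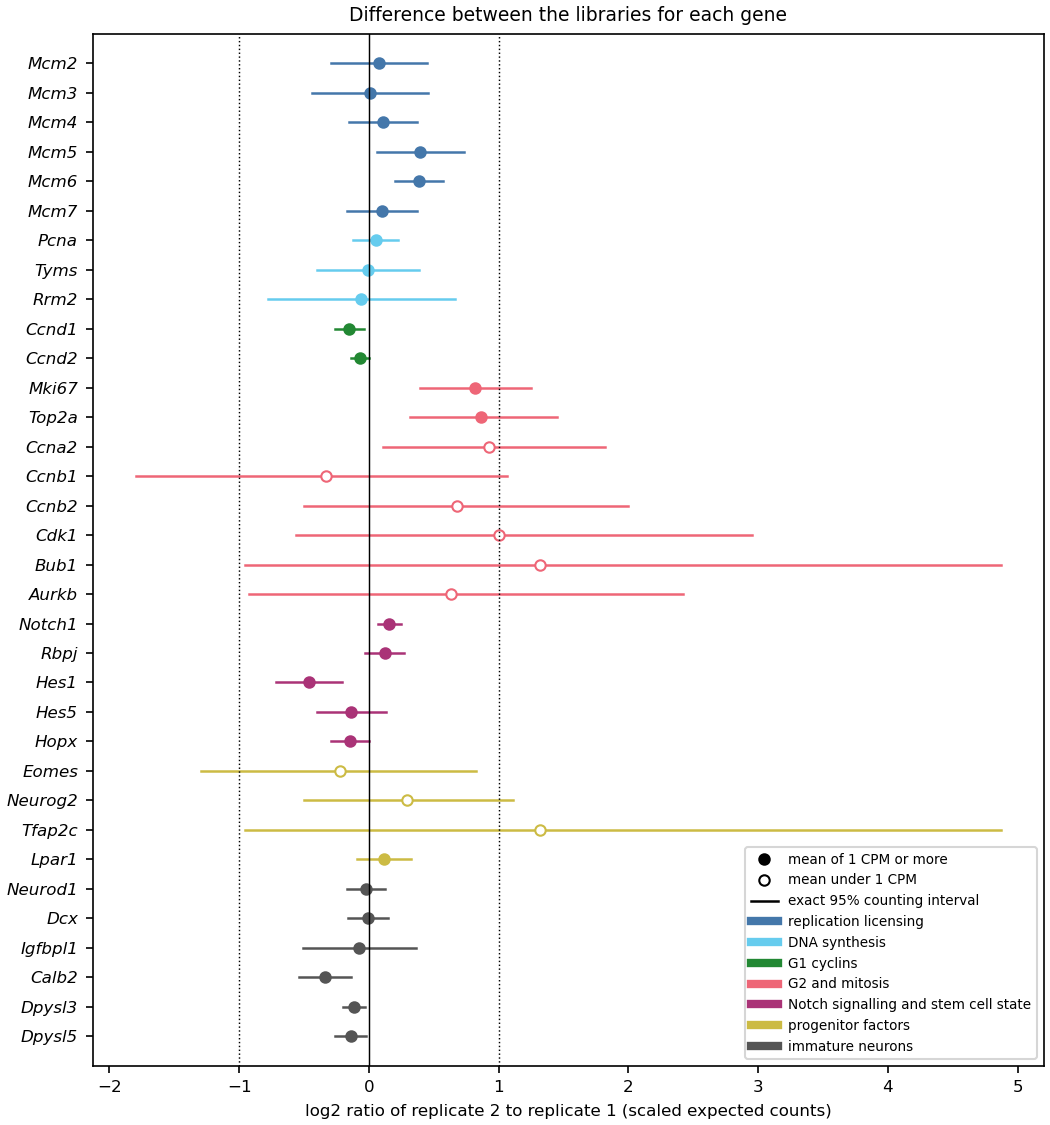
Log2 ratio of replicate 2 to replicate 1 from scaled expected counts for each of the 34 genes, with exact 95% counting intervals; filled points have a mean of 1 CPM or more and open points less, and dotted lines mark a ratio of 1 in size. Mki67 and Top2a lie farthest to the right among the filled points, at 0.81 and 0.86, and Hes1 farthest to the left, at -0.46.

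The same ratio was read for the partner genes, in lists that were chosen with earlier results of these data known. Over all 15509 genes tested, 7701 were higher in replicate 2 and 7808 lower, and 8.96% had an interval above 0 and 9.72% below. Of 15 mitotic partners tested, 11 were higher in replicate 2, with a median of 0.32, and 4 had intervals above 0 and none below. These 4 were the centromere genes Cenpa (44 and 79 counts, log2 ratio 0.78) and Cenpf (48 and 75 counts, 0.58), Anln (512 and 664 counts, 0.32) and Bub3 (0.13); all but Anln and Bub3 are named after their values were seen. For licensing partners the median was -0.02 over 13 genes and for DNA synthesis partners -0.02 over 16, and no interval left out 0 in either list. Among 17 cyclins, kinases and inhibitors the median was 0.09, with 4 intervals above 0 and none below. They were those of the inhibitor Cdkn1a (133 and 223 counts, 0.69), Ccnd3 (520 and 673 counts, 0.31), Rbl2 (0.17) and Rb1 (0.15). All 4 are named after their values were seen. The Notch partners had a median of 0.01 over 22 genes, with 4 intervals above 0 and 2 below. Other stem and progenitor genes had a median of -0.07 over 15 genes, with 2 intervals above 0 and 3 below. The first 2 were Mex3a (126 and 186 counts, 0.50) and Id4 (0.10), and the other 3 were Sox2 (884 and 711 counts, -0.37), Nes (280 and 230 counts, -0.34) and Nr2e1 (-0.22). All but Id4 are named with their values known. Other neuroblast and immature neuron genes had a median of -0.03 over 19 genes, with 2 intervals above 0 and 4 below.

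Markers of the cells of the tissue also differed between the libraries. Of 10 dentate granule cell markers, 9 were higher in replicate 2 and the same number had intervals above 0, with a median of 0.26, and their summed level was 275 and 327 TPM; the 3 highest were Calb1 at 64.5 ± 6.01, Rfx3 at 52.7 ± 8.57 and Prox1 at 39.8 ± 5.35 TPM. All 8 mature oligodendrocyte markers were higher in replicate 2, with a median of 0.11 and summed levels of 942 and 1036 TPM. Of these 8, 4 had intervals above 0 and the others had intervals that included 0. For 4 tested choroid plexus markers the median was -0.24 and none was higher, but only 1 interval, that of Ttr, left out 0. The summed level over 5 was 130 and 73.1 TPM, mostly Ttr at 93.3 ± 39.1 TPM. Median ratios lay at 0.06 for astrocyte, 0.08 for oligodendrocyte precursor, -0.03 for microglia, -0.04 for endothelial, -0.02 for GABAergic interneuron, 0.10 for ependymal and 0.12 for Cajal-Retzius markers. They lay at -0.06 for pan-neuronal genes and -0.01 for hippocampal field markers. Single markers could differ where the median was near 0. Intervals left out 0 for 6 of 8 astrocyte markers (5 above, 1 below) and 5 of 7 endothelial markers (2 above, 3 below). They did so for 6 of 7 pan-neuronal genes (1 above, 5 below), 3 of 9 interneuron markers (all below) and 4 of 9 field markers (3 above, 1 below). No marker was at 0 in both libraries. The part of these cell types in the ratios of the mitotic, licensing and immature neuron genes was not tested.

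Both deposited quantifications describe the same libraries, and 16 of the 34 genes changed rank between them. TPM in the second was higher by a median factor of 1.71 over 12947 protein-coding genes, and by 1.67 over the 34 genes. The factor was lowest for Hes5, at 1.11, and highest for Aurkb and Tyms, at 4.36 and 3.84. Tyms had 110 and 114 expected counts in the first and 454 and 540 estimated counts in the second, in which its log2 ratio of replicate 2 to replicate 1 was 0.21, interval 0.03 to 0.39. Its level is therefore uncertain by more than the spread between the libraries. Rbpj lay below Notch1 in the first quantification, with a log2 difference of -0.71 ± 0.03, and the difference in the second, 0.01 ± 0.41, was within the spread. For Hes5 over Hes1, within 3 SD in both, the log2 difference was 0.05 ± 0.04 in the first and -0.41 ± 0.34 in the second. For Mki67 and Top2a the log2 ratios between the libraries were 0.83 and 0.80 in the second, beside 0.81 and 0.86 in the first.

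**Figure D4:**
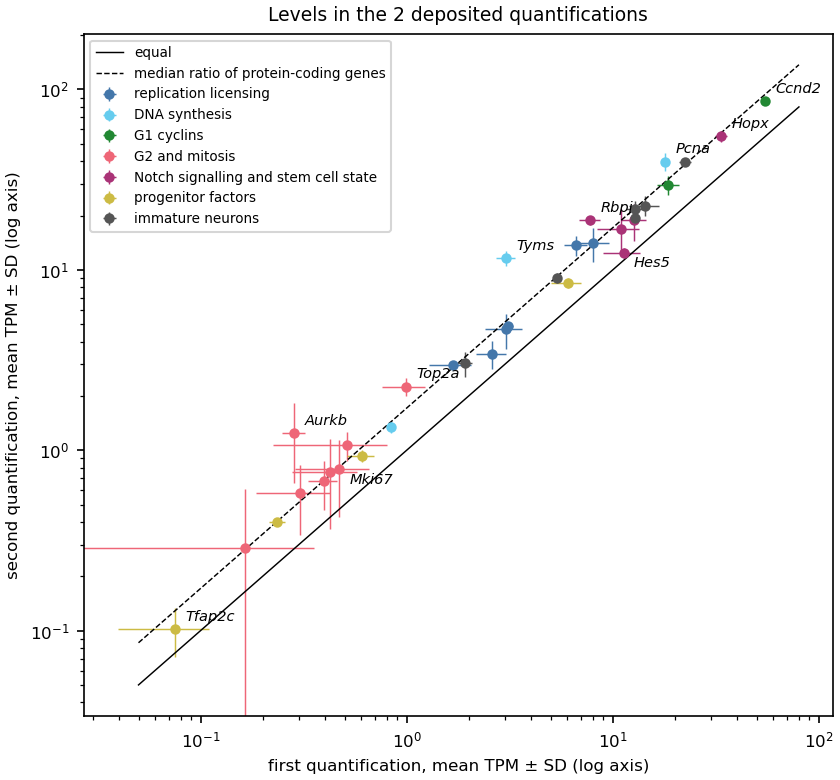
Mean TPM ± SD of the 34 genes in the first and second deposited quantification, both on log axes, with a solid line at equal levels and a dashed line at the median factor of protein-coding genes, 1.71. Tyms and Aurkb lie above the dashed line, with factors of 3.84 and 4.36, and Hes5 lies near the solid line, with 1.11.

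The share of a gene's TPM on its leading annotated transcript was read in the transcript tables. The same transcript led in both libraries for 28 of the 34 genes. Neurod1, Neurog2 and Ccnb2 have 1 annotated transcript, and Mcm4-201 and Mki67-201 took 100% of their genes. Calb2-201 took 99.6% ± 0.618 and Ccnd1-201 87.2% ± 4.46. Others were divided over several transcripts. Ccnd2-201, of 6330 bases, took 37.98% ± 2.27, with 23.0% and 22.3% on transcripts of 627 and 1006 bases, and Dcx-201 took 53.2% ± 0.525, with 23.2% on Dcx-204. Dpysl3-204 took 71.7% ± 1.86 and Dpysl3-201 27.2%.

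For a few genes the quantifications gave different transcripts, so these shares are uncertain. Hopx-202 took 86.4% ± 3.41 of Hopx in the first and almost nothing in the second, in which Hopx-201 took 51.0% and Hopx-203 49.0%. Pcna-201 took 92.3% ± 1.61 of Pcna in the first and 56.1% ± 3.93 in the second, in which Pcna-203, not annotated as protein-coding, took 42.2%. Lpar1-202 took 58.1% ± 16.4 of Lpar1 in the first and 0.141% in the second. Tyms-205, annotated as a target of nonsense-mediated decay, took 39.0% ± 4.71 of Tyms in the first and 0% in the second. Transcripts not annotated as protein-coding took 79.3% ± 1.43 of Tyms TPM and 56.4% ± 12.8 of Top2a TPM in the first, and 21.2% and 67.5% in the second. The levels of Tyms and Top2a as printed thus include RNA that is not annotated to encode the protein. So do those of other members, among them Mcm2 (40.9% in the first, 26.5% in the second), Mcm7 (27.3% and 42.3%) and Hes1 (29.9% and 23.9%). In the first, Mcm2-203, a decay target of 273 bases, took 29.3% of Mcm2 TPM, and in the second 0%. The pair ratios with Mcm2 include this RNA. For Mki67, Mcm4 and Neurod1 the share was 0% in both.

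**Figure D5:**
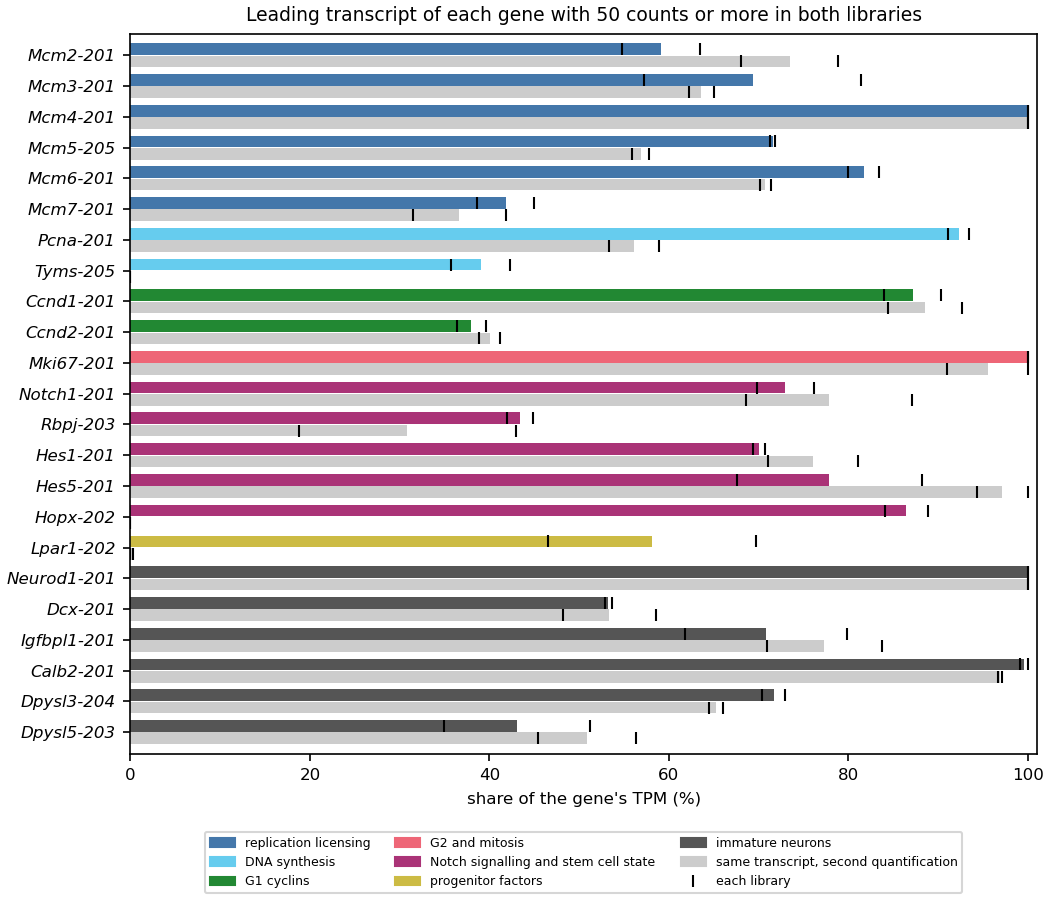
Share of each gene's TPM on the transcript that led in the first quantification (coloured bars) and on the same transcript in the second (grey bars), in percent, for the 23 genes with 50 expected counts or more in both libraries; bars are means of 2 libraries and ticks the single libraries. The grey bar is absent or nearly so for Hopx-202, Lpar1-202 and Tyms-205.

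Some members share sequence or position with other genes, and the sources used here do not give the strand setting of the authors' counting. Neurod1 (chromosome 2, 79452521 to 79456751, - strand, mm10) lies whole, over 4231 bases, within Cerkl on the same strand, which had 86 and 79 counts against 740 and 759 for Neurod1. Ccna2, with 19 and 38 counts, overlaps 863 bases of Exosc9 on the opposite strand, which had 452 and 486 counts, and the division of reads over the overlap is uncertain. Ccnd1 overlaps 1771 bases of LTO1, and Mcm7 421 bases of Ap4m1, both on the opposite strand. The pseudogene Pcna-ps2 had 24 and 51 counts in the first and 3 and 9 in the second quantification, and Rbpj-ps3 had 81 and 51 in both. The division of reads between these copies and Pcna or Rbpj is uncertain.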

How the data were processed

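Total RNA from hippocampus was sequenced in 2 libraries of 1 group. The build is mm10 and the annotation M21, per the notes that accompany the files. The aligner and counter were not given in the sources used here. The authors deposited gene and transcript tables that hold, per the file headers, an expected count and a TPM value. Beside these stand 2 deposited score columns, the ends of an interval of TPM, which a gene's own TPM can lie outside. Another transcript table that the authors deposited gives estimated counts and TPM. Its sum per gene is the second quantification.

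The 97 spike-in entries (0.378% and 0.368% of counts) and 26248 other entries that name no annotated gene were left out. Expected counts were rounded, scaled with edgeR 4.0.16 TMM factors (R 4.3.3), and given 0.5 counts before log2 ratios were taken. Genes needed a mean of 1 CPM, and a gene was called apart at 1 on the log2 scale. Counting intervals are exact (Clopper-Pearson, 95%). Pair ratios were called larger than the spread past 3 SD. The methods were tested on simulated data. The other tools were matplotlib 3.10.9, scipy 1.17.1, pandas 2.3.3 and Python 3.11.15.

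The rule for named genes took all 34 members, the 3 highest of each partner and marker list, and any listed gene at 0 counts in both libraries; of the marker lists only genes beside a result are printed, and any other gene was picked with its values known. The members and lists were chosen with earlier results of these data known. Promoter sequences are reference sequences from RefSeq (GRCm38.p6) and were not read from these hybrid mice. The promoters were checked against annotated transcripts: of 248 for listed genes, 163 matched one as given and 0 reverse complemented. Alternatives were DESeq2 1.42.0 size factors, library totals alone, other minimums, another count added, the second quantification, rescaled TPM, shares of expected counts, a shorter promoter window and each replicate left out.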

Additional observations from a re-analysis of the deposited data

How the results depend on the processing

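The number of genes detected lay between 20 and 25 of 34 under other minimums, the second quantification and TPM rescaled to nuclear protein-coding genes, and between 22 and 23 with 1 replicate left out. The number with a counting interval off 0 lay between 8 and 12, over different numbers of members. It was 10 of 25 at the minimum of 1 CPM, beside 18.7% of all genes tested. At a minimum of 5 CPM it was 8 of 18, beside 20.99%. In the second quantification it was 12 of 26, beside 18.2%, and with no filter on low counts 11 of 34, beside 11.9%. The median log2 ratio lay between -0.01 and 0.07. The count of genes apart was 0 under all alternatives but 1: with no filter on low counts it was 3 of 34, beside 20.3% of 27825 genes. Levels were scale-bound: the second quantification moved 31 of 34 levels by more than 1 SD and the rescaling, by a factor of 2.47 to 2.48, all 34. Of the 10 pairs past 3 SD, Rbpj against Notch1 changed sign in the second quantification, to 0.0141 ± 0.41 on the log2 scale, within the spread; Hes5 over Hes1, not past 3 SD in either, went from 0.05 to -0.41. The cause was not tested. The same transcript led in both libraries for 27 genes in the second quantification and for 28 by expected counts. Leaving out a replicate gives no such agreement; replicate 1 alone had the leader of the mean share for 30 genes and replicate 2 alone for 32. In the shorter promoter window 7 motifs, against 6, were more frequent in the members' promoters than in all. No paired analysis was possible because the 2 libraries form 1 group. Depth limits the 11 genes with fewer than 50 counts in a library.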
